A study of Mus musculus with 12 samples.

Results

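The genes of the SREBP pathway that builds cholesterol and fatty acids, 31 in all, were followed in RAW264.7, a line of mouse macrophages, under added NaCl and lipopolysaccharide (LPS). The 31 were taken by name from the array annotation, and each was represented by its brightest probe. All 31 had a probe, all 31 were well above background on all 12 arrays, and all 31 were among the 13856 genes tested, out of 24180 genes with a probe named by symbol. The 4 groups had 3 arrays each. HS+LPS cells received 40 mM added NaCl and 10 ng/ml LPS for 24 h, NS+LPS cells LPS alone, HS cells the added NaCl alone, and NS cells neither. HS and NS are not spelled out in the labels and were taken to mean high salt, as the title has it, and medium with no NaCl added. All groups are the same cell line, and the labels do not say whether replicates were separate cultures, so p-values measure the spread between these arrays, which may be technical.

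Sterol regulatory element binding proteins (SREBPs) are transcription factors made as membrane proteins of the endoplasmic reticulum. When sterols are low, the escort protein Scap carries them to the Golgi, where proteases free the part that enters the nucleus. When sterols are high, Insig proteins hold Scap back. Srebf2 encodes the form best known for cholesterol genes and Srebf1 the form best known for fatty acid genes. In macrophages these pathways supply membranes, and LPS, which is sensed through the receptor TLR4, is known to reshape them.

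Relative signal below means the signal of a probe divided by the 75th percentile of its array, so a value of 1 is the 75th percentile. That percentile itself was 411 to 438 units on the HS+LPS arrays, 621 to 635 on NS+LPS, 613 to 656 on HS and 641 to 783 on NS. Of all probes, the share flagged well above background was 44.6 to 45.6%, 45.9 to 50.5%, 47.2 to 53.3% and 50.1 to 51.2% in the same group order, and replicates of a group correlated at 0.996 to 0.998 across probes. The HS and NS arrays and the first 2 NS+LPS arrays shared a slide, and the third NS+LPS array was on another slide of that scan day. A separate slide, scanned later, held the 3 HS+LPS arrays, so in comparisons with HS+LPS the treatment and the slide cannot be told apart. Slc5a3, an osmolyte transporter known to rise under salt stress, was higher by 2.34 in HS+LPS than NS+LPS and by 2.56 in HS than NS on the log2 scale, and Cxcl10, a chemokine gene known to answer LPS, was higher by 3.67 in HS+LPS than HS and by 4.94 in NS+LPS than NS (log2). Of 10 macrophage markers, 8 were above background on all 12 arrays (Mertk was on none, and no probe was matched to Spi1). Their summed relative signal was 1030 to 1080 in HS+LPS, 847 to 890 in NS+LPS, 823 to 916 in HS and 814 to 853 in NS. The defining markers Adipoq, Lep, Cfd (adipocyte), Alb, Apoa1, Ttr (hepatocyte), Pdgfra (fibroblast), Ms4a1 (B cell) and all 4 epithelial markers were above background on no array. Of the other markers in these lists, Serpina1a (hepatocyte), Col1a2 (fibroblast) and Cd79a (B cell) were above it on 9 arrays each, Dcn (fibroblast) on 5, and Col1a1 (fibroblast) and Plin1 (adipocyte) on 1. Of 4 T cell markers, Cd3e and Cd4 were above background on all 12 arrays, Cd8a on 2 and Cd3d on 1. The list summed to 2.4 to 2.56 in HS+LPS, 2.38 to 2.87 in NS+LPS, 2.76 to 3.01 in HS and 2.33 to 2.58 in NS. The HS sums lay above the NS sums on every array. The hepatocyte sums (0.0895 to 0.106 in HS+LPS, 0.116 to 0.149 in NS+LPS) and fibroblast sums (0.103 to 0.144 in HS+LPS, 0.183 to 0.266 in NS+LPS) also did not overlap between these groups. The part of these marker differences in the results below was not tested.

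Promoter windows from RefSeq (build GRCm38.p6, the 250 bases before each annotated start) were found for 24 of the 31 members, as 30 windows. The motifs searched, on both strands, were the sterol regulatory element TCACNCCAC, the NF-Y box CCAAT, the Sp1 box GGGCGG and the E-box CACGTG. The NF-Y box was in 63.3% of member windows and in 33.8% of all 32851 windows, and the Sp1 box in 73.3% of member windows and 32.7% of all windows. The E-box was in 16.7% of member windows and 6.02% of all, and the sterol regulatory element in 3.33% and 1.05%. A match is a run of letters and not a measured binding site. The windows of 5 members that the results turn on are shown here on their gene's strand, with every match to a motif in capitals. Hmgcs1 (chr13:119690101-119690350, plus strand) held the only match to the sterol regulatory element, as searched, among the member windows. It lay 137 bases before the start, and the window also held 3 NF-Y and 2 Sp1 boxes. Mvd (chr8:122443423-122443672, minus strand) rose with salt both with and without LPS. Tm7sf2 (chr19:6067851-6068100, minus strand) had the largest interaction among the members, and Hsd17b7 (chr1:169969206-169969455, minus strand) the largest rise with LPS alone. Fasn (chr11:120824548-120824797, minus strand) had the largest fall with LPS, and its window held 3 NF-Y boxes, 2 of which overlap in one run, and no Sp1 box.
Hmgcs1: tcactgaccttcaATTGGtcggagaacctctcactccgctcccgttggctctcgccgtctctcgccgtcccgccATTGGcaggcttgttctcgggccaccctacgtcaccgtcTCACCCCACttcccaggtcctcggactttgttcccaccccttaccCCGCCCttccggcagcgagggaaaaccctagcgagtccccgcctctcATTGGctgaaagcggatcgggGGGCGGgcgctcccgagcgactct
Mvd: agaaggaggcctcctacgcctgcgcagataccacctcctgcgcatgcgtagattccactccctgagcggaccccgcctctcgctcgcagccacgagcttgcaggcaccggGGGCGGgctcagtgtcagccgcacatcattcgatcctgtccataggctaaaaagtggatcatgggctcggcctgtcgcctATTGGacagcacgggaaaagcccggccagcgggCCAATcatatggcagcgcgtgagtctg
Tm7sf2: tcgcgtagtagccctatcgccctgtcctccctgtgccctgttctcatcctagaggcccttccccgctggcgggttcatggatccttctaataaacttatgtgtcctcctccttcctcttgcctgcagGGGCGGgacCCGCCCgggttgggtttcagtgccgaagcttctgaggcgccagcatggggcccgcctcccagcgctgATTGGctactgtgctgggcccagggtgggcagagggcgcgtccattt
Hsd17b7: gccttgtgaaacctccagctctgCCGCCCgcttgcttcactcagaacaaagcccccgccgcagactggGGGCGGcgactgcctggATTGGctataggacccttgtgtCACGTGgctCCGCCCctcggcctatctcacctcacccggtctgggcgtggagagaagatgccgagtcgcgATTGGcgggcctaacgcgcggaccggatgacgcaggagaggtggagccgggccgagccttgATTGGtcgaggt
Fasn: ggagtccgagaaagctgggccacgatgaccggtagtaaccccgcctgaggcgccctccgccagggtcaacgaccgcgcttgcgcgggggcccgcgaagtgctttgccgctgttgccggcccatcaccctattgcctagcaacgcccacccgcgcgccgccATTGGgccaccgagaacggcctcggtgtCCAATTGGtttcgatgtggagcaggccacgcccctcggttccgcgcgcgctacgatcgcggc

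**Figure D1:**
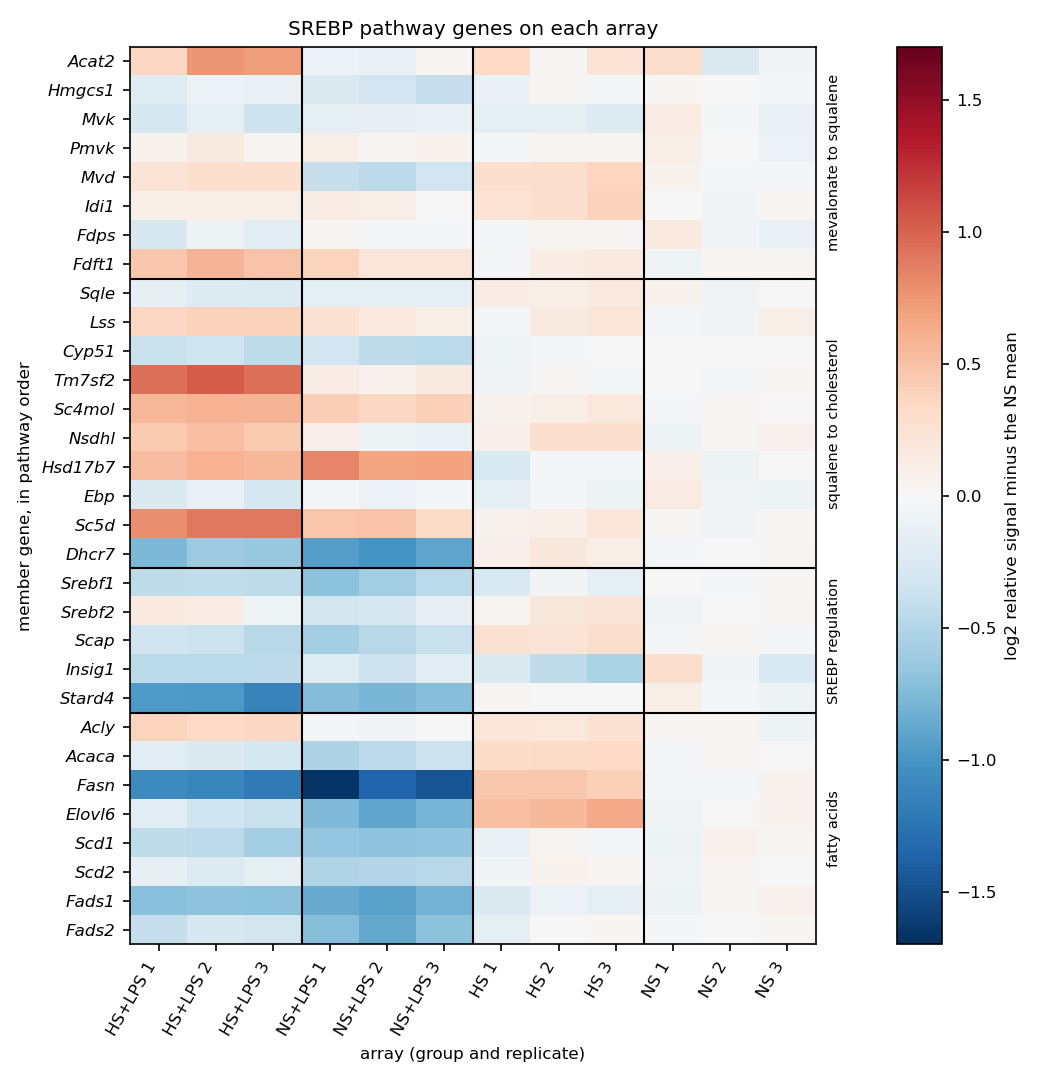
Heat map of the 31 members (rows, in pathway order, with lines between the 4 roles) on the 12 arrays (columns, by group). Colour is the log2 relative signal minus the mean of the 3 NS arrays, red for higher and blue for lower. The fatty acid rows except Acly were blue on all HS+LPS and NS+LPS arrays, and Tm7sf2 was deep red on the HS+LPS arrays.

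The first question was how the pathway differed with added NaCl in cells without LPS. In all, 10 members were called higher and 2 lower in HS than in NS (called means adjusted p under 0.05 over all genes), which is 38.7% of the members. Among all 13856 genes tested, 37% were called, 18.2% higher and 18.8% lower, so the share of members called was near the background while 32.3% of them were called higher. Those higher were Elovl6, Fasn, Acaca and Acly of fatty acid synthesis, Mvd and Idi1 of the mevalonate branch, Nsdhl, Sqle and Sc4mol of the sterol branch, and the escort gene Scap. Insig1 and Fads1 were called lower. The median log2 difference of the members was 0.093, against 0.017 over all genes tested. With the mean of a gene's probes in place of the brightest probe, both medians were 0.019. The groups did not overlap for 15 members (48.4% of members, against 50.5% of all genes). Insig1 and Fads1 kept no call with NS and HS fitted alone or with slide as a fixed block, a fit without the HS+LPS arrays. Either fit left 0 members lower, with the differences themselves unchanged at -0.408 and -0.172. Sqle, Sc4mol and Nsdhl, called higher, also kept no call in either fit (adjusted p = 0.0536 to 0.122). Under every alternative processing or omission run, 7 higher and 0 lower calls were kept. The HS and NS arrays share a slide, and slide as a random block ended no member call. The number lower was also 0 without NS replicate 2 or HS replicate 3 and 1 without NS replicate 1 or HS replicate 1.

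With LPS present, added NaCl was accompanied by more calls. Here 19 members were called higher and 1 lower in HS+LPS than in NS+LPS, or 64.5% of the members. Of all genes tested, 57.5% were called. Called higher were 61.3% of members and 26.2% of all genes, and 31.4% of all genes were called lower. All 8 fatty acid members, 6 of 10 members from squalene to cholesterol, 4 of 8 of the mevalonate branch and Srebf2 were called higher, and the sterol carrier gene Stard4 lower. Of the fatty acid calls, those of Acaca, Scd1 and Fads1 were lost under other processing or when single arrays were left out. The median log2 difference was 0.186 for members and -0.043 for all genes. The groups did not overlap for 25 members (80.6%, against 64.2% of all genes). The split depended on scaling: normexp background correction gave 17 higher and 6 lower. Quantile normalization and the authors' value table each gave 19 higher and 4 lower, and cyclic loess 20 higher and 3 lower. The lower count was 2 without NS replicate 3 or HS replicate 1, 3 without NS replicate 1 and 4 without HS+LPS replicate 2.

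The next question was the difference with LPS in medium without added NaCl. In NS medium 16 members were called lower and 6 higher in NS+LPS than in NS, 71% of the members, where 63.8% of all genes were called, 28.6% higher and 35.1% lower. The calls ran by role. Of 8 fatty acid members 7 were lower, as were 4 of 5 regulators and sterol carriers, and none of these 13 was called higher. Of those 4, Stard4 had a second probe at 0.771, and the Srebf2 call was lost without NS replicate 3 or NS+LPS replicate 1. From squalene to cholesterol, 5 were higher and 3 lower, and in the mevalonate branch 1 was higher and 2 lower. The median log2 difference was -0.719 over the fatty acid members, -0.246 over all members and -0.034 over all genes. Groups did not overlap for 23 members (74.2%, against 69.6% of all genes). Without NS replicate 1 the members' median was -0.128, with 15 to 17 lower calls over all single omissions.

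In medium with added NaCl, 9 members were called higher and 15 lower in HS+LPS than in HS, which is 77.4% of the members, beside 72.3% of all genes, 30.5% higher and 41.8% lower. Of 8 fatty acid members, 7 were lower and Acly was higher. Of 10 members from squalene to cholesterol, 6 were higher and 3 lower. The members' median was -0.134 and that of all genes -0.108, and groups did not overlap for 24 members (77.4%, against 74.9% of all genes). Cyclic loess moved the median of all genes to 0.032 and that of members to -0.097, so the members' median relative to all genes was -0.026 as reported and -0.129 with cyclic loess. The same gap was -0.166 with normexp, -0.098 with quantile normalization and -0.067 with the authors' value table. The 2 comparisons with LPS share no array: 6 members were higher in both and 13 lower in both, and none was called in opposite directions. That is 19.4% of members higher and 41.9% lower in both, beside 22.5% and 28.1% of all genes, of which 1.32% and 1.62% were called in opposite directions.

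**Figure D2:**
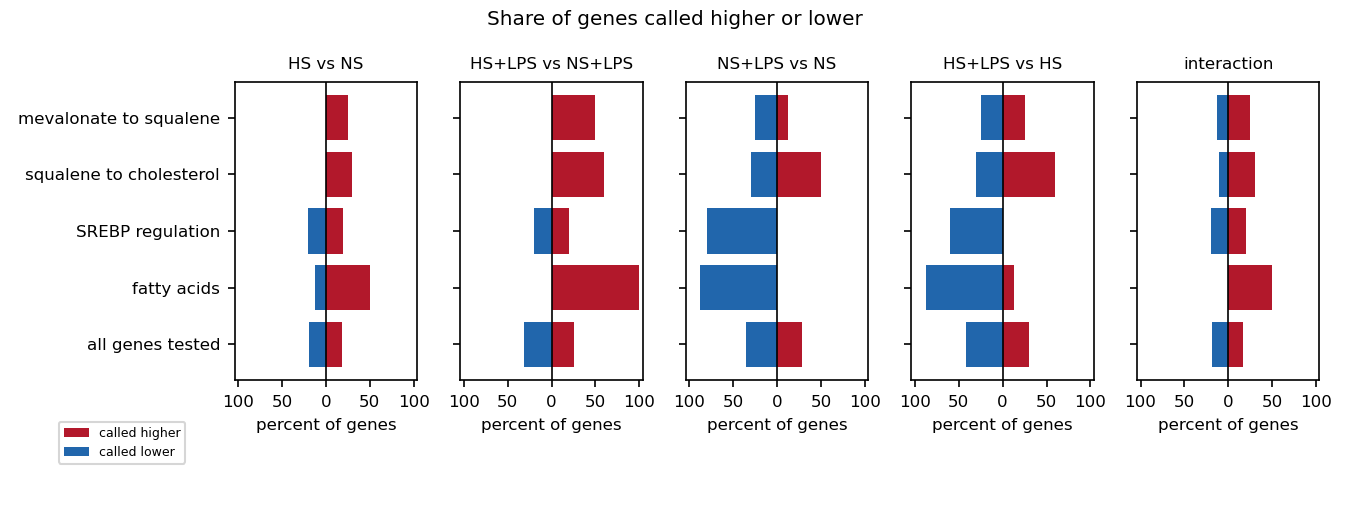
Percent of genes called higher (red, to the right) and lower (blue, to the left) in each comparison, for the members by role (8, 10, 5 and 8 genes from the top) and for all 13856 genes tested. The panel named interaction is the salt difference with LPS minus that without. All 8 fatty acid members were called higher in HS+LPS against NS+LPS, and 7 of 8 were called lower in both comparisons with LPS. The Acaca, Scd1 and Fads1 calls in HS+LPS against NS+LPS, and the Fads2 call in HS+LPS against HS, were lost under some alternatives.

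Of the fatty acid enzymes, Fasn, which makes palmitate, had the largest difference with LPS of the 31 members. Its relative signals were 0.737, 0.722 and 0.68 on the HS+LPS arrays, 0.49, 0.613 and 0.562 on the NS+LPS arrays, 2.14, 2.14 and 2.06 on the HS arrays and 1.52, 1.54 and 1.62 on the NS arrays (probe at chromosome 11, 120667666 to 120667725, mm9). The LPS arrays of both media lay below all arrays without LPS, and in each pair the arrays with added NaCl lay above those without it. Fasn was 2.82-fold lower in NS+LPS than in NS, a log2 difference of -1.50 (SE 0.073, adjusted p = 2.83e-08), and 2.97-fold lower in HS+LPS than in HS, -1.57 (SE 0.073, adjusted p = 1.94e-08). The salt difference was 0.37 (SE 0.073, adjusted p = 0.00174) with LPS and 0.44 (SE 0.073, adjusted p = 0.00107) without. Since these are bulk samples, fewer cells making an RNA and less RNA per cell cannot be told apart, here or below.

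Elovl6, which lengthens palmitate, followed the order of Fasn. Relative signals of Elovl6 were 5.7, 5.17 and 5 on the HS+LPS arrays, 3.86, 3.48 and 3.76 on the NS+LPS arrays, 9.25, 9.52 and 10.2 on the HS arrays and 6.25, 6.52 and 6.78 on the NS arrays. No groups overlapped. The salt differences were 0.52 (SE 0.063, adjusted p = 8.33e-05) with LPS and 0.57 (SE 0.063, adjusted p = 9.55e-05) without, and the LPS differences -0.87 in HS medium and -0.82 in NS medium. For Acaca, the carboxylase that makes malonyl-CoA, they were 20.9, 19.8 and 19.1 on the HS+LPS arrays, 16.4, 17.2 and 18.4 on the NS+LPS arrays, 29.2, 29.7 and 29.9 on the HS arrays and 23, 23.9 and 23.8 on the NS arrays. Again no groups overlapped. Acaca rose with salt by 0.20 (SE 0.05, adjusted p = 0.00563) with LPS and 0.33 (SE 0.05, adjusted p = 0.000611) without, and its LPS differences were -0.57 and -0.45 in HS and NS medium. With LPS the salt call for Acaca ended under normexp (0.121, adjusted p = 0.0571) and with the mean of its 4 probes (0.078, adjusted p = 0.196). These probes differed in sign there (-0.108 to 0.248), so the rise under LPS rests on the choice of probe.

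Acly, which cleaves citrate to give cytosolic acetyl-CoA, stood apart from these genes in its LPS difference. Relative signals of Acly were 64.9, 63 and 63.7 on the HS+LPS arrays, 49.2, 48.4 and 49.8 on the NS+LPS arrays, 57.6, 56.7 and 59.3 on the HS arrays and 51.4, 51.4 and 47.3 on the NS arrays. The HS+LPS arrays were the highest, the HS arrays came next, and the NS+LPS and NS arrays overlapped. Acly rose with salt by 0.38 (SE 0.041, adjusted p = 3.72e-05) with LPS and 0.21 (SE 0.041, adjusted p = 0.0028) without, and HS+LPS exceeded HS by 0.14 (SE 0.041, adjusted p = 0.00991). Between NS+LPS and NS the difference was -0.024 (95% interval -0.12 to 0.068, adjusted p = 0.63).

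The desaturases differed from Fasn in the salt comparison without LPS. Scd2, a stearoyl-CoA desaturase, had relative signals of 108, 101 and 106 on the HS+LPS arrays, 83.4, 84.7 and 85.9 on the NS+LPS arrays, 115, 124 and 122 on the HS arrays and 115, 123 and 120 on the NS arrays. Its HS and NS arrays overlapped, while every HS+LPS array lay above every NS+LPS array. The salt difference was 0.31 (SE 0.043, adjusted p = 0.000205) with LPS and 0.016 (95% interval -0.081 to 0.11, adjusted p = 0.806) without, and the LPS differences were -0.20 in HS medium and -0.49 in NS medium. Scd1, its near relative, averaged 5.07 ± 0.266 in HS+LPS, 4.45 ± 0.031 in NS+LPS, 6.93 ± 0.431 in HS and 7.09 ± 0.381 in NS (SD, n = 3 each). Scd1 was higher by 0.19 (SE 0.059, adjusted p = 0.0213) with salt under LPS, a call lost without NS+LPS replicate 2, HS+LPS replicate 1 or HS+LPS replicate 2 (0.16 to 0.181), and its difference with LPS was -0.45 in HS and -0.67 in NS medium. Close relatives such as these may share signal on a probe.

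Fads2 and Fads1 encode desaturases of polyunsaturated fatty acid synthesis. Fads2 had relative signals of 3.17, 3.46 and 3.36 on the HS+LPS arrays, 2.51, 2.27 and 2.56 on the NS+LPS arrays, 3.71, 4.19 and 4.25 on the HS arrays and 4.1, 4.13 and 4.26 on the NS arrays. HS and NS arrays overlapped, HS+LPS arrays lay below both and NS+LPS arrays were the lowest. With salt, Fads2 differed by 0.44 (SE 0.065, adjusted p = 0.000261) with LPS and -0.042 (95% interval -0.19 to 0.10, adjusted p = 0.652) without, and with LPS by -0.77 (SE 0.065, adjusted p = 2.16e-06) in NS medium and -0.28 (SE 0.065, adjusted p = 0.00274) in HS medium, the last not called with the mean of its 2 probes (-0.087, adjusted p = 0.15). Fads1 was measured at 11.3, 11.5 and 11.3 on the HS+LPS arrays, 10.2, 9.83 and 10.6 on the NS+LPS arrays, 15.5, 17.2 and 16.5 on the HS arrays and 17.3, 18.6 and 19.5 on the NS arrays. Every HS array lay below every NS array, and every HS+LPS array above every NS+LPS array. Fads1 was the member called in opposite directions with salt, -0.17 (SE 0.053, adjusted p = 0.0286) without LPS and 0.16 (SE 0.053, adjusted p = 0.0296) with it. The first call was lost when NS replicate 2, NS replicate 3, HS replicate 1 or HS replicate 3 was left out (-0.178 to -0.133), and the second without NS+LPS replicate 1 or 2 or any HS+LPS replicate (0.129 to 0.159). With LPS Fads1 fell by 0.85 in NS medium and 0.53 in HS medium on the log2 scale.

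**Figure D3:**
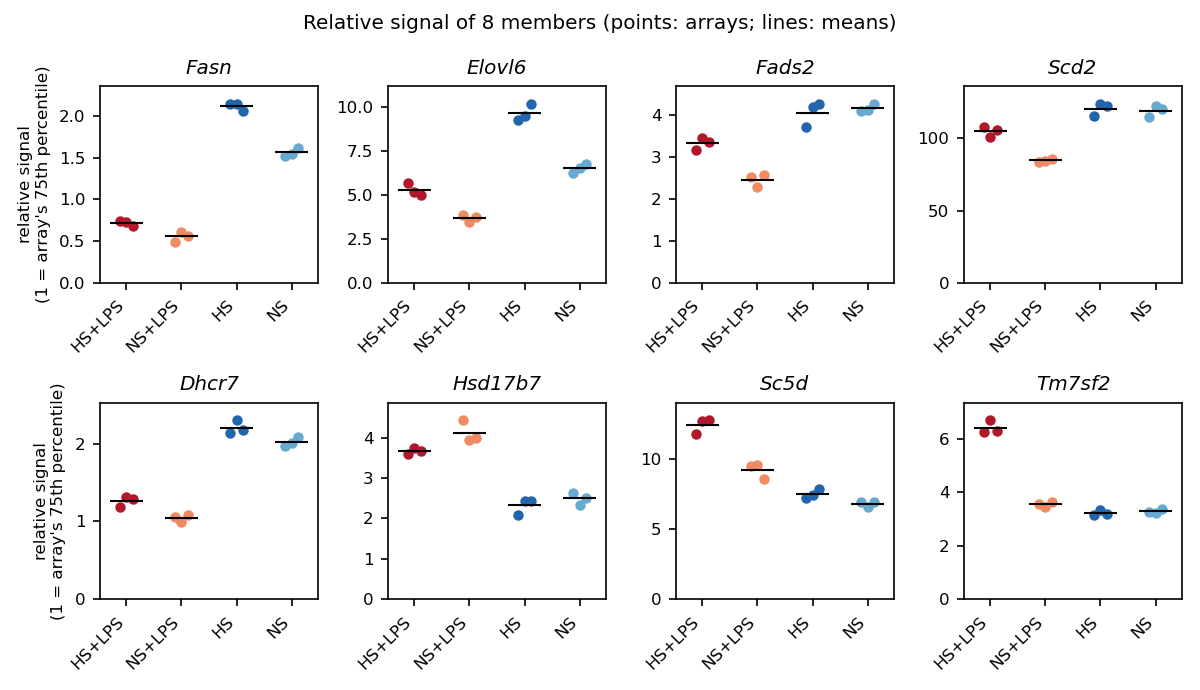
Relative signal (1 is the array's 75th percentile, linear axis from 0) of 8 members in the HS+LPS, NS+LPS, HS and NS groups. Each point is an array and each line the mean of 3. Fasn, Elovl6, Fads2, Scd2 and Dhcr7 were lower on the LPS arrays, Hsd17b7 and Sc5d were higher on them, and Tm7sf2 was highest in HS+LPS (6.26 to 6.68).

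Among the enzymes that turn squalene into cholesterol, Tm7sf2, a sterol reductase, had the largest salt difference of the members. Relative signals of Tm7sf2 were 6.26, 6.68 and 6.28 on the HS+LPS arrays, 3.57, 3.44 and 3.65 on the NS+LPS arrays, 3.14, 3.33 and 3.2 on the HS arrays and 3.26, 3.23 and 3.35 on the NS arrays (probe at chromosome 19, 6062882 to 6062941, mm9). The HS+LPS arrays stood far above all others, and HS and NS arrays overlapped. Tm7sf2 was 1.8-fold higher in HS+LPS than in NS+LPS, 0.85 (SE 0.042, adjusted p = 2.71e-07), and 1.99-fold higher than in HS, 0.99 (SE 0.042, adjusted p = 1.11e-08). The salt difference without LPS was -0.025 (95% interval -0.12 to 0.07, adjusted p = 0.686). A second probe gave 0.93 with salt under LPS. Its small call with LPS in NS medium, 0.12 (SE 0.042, adjusted p = 0.0351), was lost without NS replicate 1 or 2 or NS+LPS replicate 1 or 3 (0.096 to 0.111).

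Sc5d, a sterol desaturase near the end of the route, rose with LPS in both media. Sc5d was measured at 11.8, 12.7 and 12.8 on the HS+LPS arrays, 9.49, 9.55 and 8.59 on the NS+LPS arrays, 7.19, 7.4 and 7.86 on the HS arrays and 6.94, 6.61 and 6.93 on the NS arrays. The 4 groups did not overlap, in the order HS+LPS, NS+LPS, HS and NS from high to low. The LPS differences were 0.73 (SE 0.056, adjusted p = 8.33e-07) in HS medium and 0.43 (SE 0.056, adjusted p = 5.67e-05) in NS medium, and the salt differences 0.43 (SE 0.056, adjusted p = 0.000113) with LPS and 0.13 (95% interval 0.008 to 0.26, adjusted p = 0.0897) without. Sc4mol (current symbol Msmo1), a sterol methyl oxidase, had relative signals of 57, 57.7 and 57.3 on the HS+LPS arrays, 51.6, 49.1 and 51 on the NS+LPS arrays, 40.1, 41 and 43.3 on the HS arrays and 37.9, 39 and 38.4 on the NS arrays. Its groups followed the same order without overlap. Sc4mol rose with LPS by 0.47 (SE 0.039, adjusted p = 1.51e-06) in HS medium and 0.40 (SE 0.039, adjusted p = 6.7e-06) in NS medium, and with salt under LPS by 0.18 (SE 0.039, adjusted p = 0.00262), which normexp took to 0.074 (adjusted p = 0.245). Its salt call without LPS, 0.11 (SE 0.039, adjusted p = 0.0492), was lost when any array but HS replicate 1 was left out (0.077 to 0.119).

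Nsdhl and Hsd17b7 act with Sc4mol in removing methyl groups from sterols. Nsdhl had relative signals of 2.89, 3.03 and 2.92 on the HS+LPS arrays, 2.27, 2.02 and 1.97 on the NS+LPS arrays, 2.26, 2.58 and 2.59 on the HS arrays and 2, 2.16 and 2.25 on the NS arrays. HS+LPS arrays lay above all others, HS above NS, and NS+LPS overlapped NS. It rose with salt by 0.50 (SE 0.072, adjusted p = 0.000221) with LPS and 0.21 (SE 0.072, adjusted p = 0.0402) without, the second call lost when NS replicate 1, NS replicate 2, HS replicate 2, HS replicate 3, NS+LPS replicate 2, HS+LPS replicate 1 or HS+LPS replicate 3 was left out (0.167 to 0.221). HS+LPS exceeded HS by 0.25 (SE 0.072, adjusted p = 0.00868). Hsd17b7 signals were 3.59, 3.75 and 3.68 on the HS+LPS arrays, 4.43, 3.95 and 4 on the NS+LPS arrays, 2.08, 2.44 and 2.44 on the HS arrays and 2.64, 2.34 and 2.51 on the NS arrays. LPS arrays lay above all arrays without LPS, with NS+LPS above HS+LPS. Hsd17b7 was 1.65-fold higher in NS+LPS than NS, 0.72 (SE 0.073, adjusted p = 8.8e-06), and 1.59-fold higher in HS+LPS than HS, 0.67 (SE 0.073, adjusted p = 1.42e-05). Neither salt difference was called, at -0.17 (95% interval -0.33 to -0.004, adjusted p = 0.0744) and -0.11 (95% interval -0.27 to 0.055, adjusted p = 0.28), and its 3 probes differed in sign there (-0.167 to 0.156 with LPS). For the LPS differences these probes ranged from 0.197 to 0.725 in NS medium and from 0.119 to 0.69 in HS medium, and their mean took the first to 0.475.

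Dhcr7, the reductase of the last step to cholesterol, ran against these enzymes. Relative signals of Dhcr7 were 1.19, 1.31 and 1.29 on the HS+LPS arrays, 1.05, 0.998 and 1.08 on the NS+LPS arrays, 2.14, 2.3 and 2.18 on the HS arrays and 1.97, 2 and 2.09 on the NS arrays. LPS arrays were lower than all arrays without LPS. Dhcr7 was 1.93-fold lower in NS+LPS than NS, -0.95 (SE 0.052, adjusted p = 6.91e-08), and 1.75-fold lower in HS+LPS than HS, -0.81 (SE 0.052, adjusted p = 2.23e-07). With salt it was higher by 0.27 (SE 0.052, adjusted p = 0.00134) in LPS, and its difference without LPS was 0.13 (95% interval 0.011 to 0.24, adjusted p = 0.0808). Sqle, the squalene epoxidase, had relative signals of 30.6, 28.9 and 28.8 on the HS+LPS arrays, 30.1, 30.4 and 30.3 on the NS+LPS arrays, 36.9, 36.3 and 37.9 on the HS arrays and 35.2, 32.4 and 33.7 on the NS arrays. LPS arrays lay below all others and HS above NS. Sqle fell with LPS by 0.33 in HS medium and 0.16 in NS medium (adjusted p = 3.63e-05 and 0.00677), and its salt rise without LPS, 0.13 (SE 0.041, adjusted p = 0.0284), was lost when NS replicate 2, NS replicate 3, HS replicate 1 or HS replicate 3 was left out (0.105 to 0.137). With LPS the salt difference was -0.041 (95% interval -0.13 to 0.051, adjusted p = 0.419).

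The remaining sterol enzymes had smaller differences. Cyp51, the lanosterol demethylase, averaged 1.1 ± 0.0352 in HS+LPS, 1.09 ± 0.0509 in NS+LPS, 1.41 ± 0.0391 in HS and 1.44 ± 0.00751 in NS (SD, n = 3 each) and was lower with LPS in HS medium, -0.35 (SE 0.044, adjusted p = 3.83e-05), and in NS medium, -0.41 (SE 0.044, adjusted p = 1.43e-05). Lss, the lanosterol synthase, averaged 7.19 ± 0.127 in HS+LPS, 6.28 ± 0.308 in NS+LPS, 5.98 ± 0.484 in HS and 5.54 ± 0.333 in NS. It was higher in HS+LPS than in HS by 0.27 (SE 0.066, adjusted p = 0.00421), and its calls of 0.20 with salt under LPS and 0.18 with LPS alone each failed without 4 of the arrays. Those were replicates 2 and 3 of NS+LPS and of HS+LPS for the first (0.164 to 0.191) and replicates 1 and 2 of NS and of NS+LPS for the second (0.144 to 0.186). Ebp, a sterol isomerase, averaged 59.4 ± 3.72 in HS+LPS, 66.8 ± 1.86 in NS+LPS, 65.2 ± 2.98 in HS and 69.3 ± 5.71 in NS and was called in no comparison.

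In the branch from acetyl-CoA to squalene, Mvd, the decarboxylase that makes isopentenyl pyrophosphate, rose with salt in both settings. Mvd was measured at 14.8, 15.3 and 15.4 on the HS+LPS arrays, 9.59, 9.29 and 10.1 on the NS+LPS arrays, 15.3, 15.6 and 16.3 on the HS arrays and 13.1, 12.5 and 12.3 on the NS arrays. NS+LPS arrays were the lowest, NS arrays next, and HS+LPS and HS arrays overlapped at the top. The salt difference was 0.66 (SE 0.045, adjusted p = 1.73e-06) with LPS and 0.32 (SE 0.045, adjusted p = 4e-04) without, and the difference of NS+LPS from NS was -0.39. Idi1, the isomerase of the next step, had relative signals of 14.4, 14.5 and 14.4 on the HS+LPS arrays, 14.6, 14.4 and 13.4 on the NS+LPS arrays, 15.8, 16.3 and 17.7 on the HS arrays and 13.4, 13 and 13.8 on the NS arrays. HS arrays lay above all others, and the other 3 groups spanned 13 to 14.6. Its salt difference was 0.30 (SE 0.05, adjusted p = 0.00105) without LPS and 0.031 (95% interval -0.081 to 0.14, adjusted p = 0.619) with it, and the difference of HS+LPS from HS was -0.20.

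Hmgcs1, which makes the HMG-CoA that the pathway reduces to mevalonate, had relative signals of 18.8, 20.2 and 19.8 on the HS+LPS arrays, 18.2, 17.2 and 16.5 on the NS+LPS arrays, 20.1, 22.2 and 21.1 on the HS arrays and 22, 21.6 and 21.4 on the NS arrays. NS+LPS arrays were the lowest. It was lower with LPS in NS medium, -0.32 (SE 0.051, adjusted p = 0.000239), and higher with salt under LPS, 0.18 (SE 0.051, adjusted p = 0.0124), a call that normexp ended (0.135, adjusted p = 0.0642). Acat2, the thiolase that joins acetyl-CoA units, had relative signals of 0.387, 0.507 and 0.494 on the HS+LPS arrays, 0.281, 0.277 and 0.309 on the NS+LPS arrays, 0.381, 0.305 and 0.356 on the HS arrays and 0.37, 0.255 and 0.292 on the NS arrays. HS+LPS arrays lay above all others, by little for replicate 1. Acat2 was 1.59-fold higher with salt under LPS, 0.67 (SE 0.15, adjusted p = 0.00312). Its call in HS+LPS against HS, 0.41 (SE 0.15, adjusted p = 0.0282), was lost without HS replicate 2 or HS+LPS replicate 2 or 3 (0.317 to 0.356).

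Fdft1, the squalene synthase, had relative signals of 9.7, 10.5 and 9.9 on the HS+LPS arrays, 9.2, 8.13 and 8.13 on the NS+LPS arrays, 6.97, 7.71 and 7.91 on the HS arrays and 6.7, 7.2 and 7.27 on the NS arrays. HS+LPS arrays were the highest, NS+LPS next, and HS overlapped NS. Its differences were 0.42 (SE 0.067, adjusted p = 0.000249) with LPS in HS medium, 0.27 (SE 0.067, adjusted p = 0.00565) with LPS in NS medium and 0.25 (SE 0.067, adjusted p = 0.0106) with salt under LPS. A second, dimmer probe, above background on 4 of the 12 arrays, ran the other way, so the mean of both probes was -0.179, -0.164 and -0.666 in the same order, none called. Fdps, which makes farnesyl pyrophosphate, had relative signals of 88.6, 101 and 94.1 on the HS+LPS arrays, 110, 105 and 106 on the NS+LPS arrays, 106, 111 and 109 on the HS arrays and 120, 103 and 99.3 on the NS arrays. HS+LPS arrays lay below HS and below NS+LPS, and the other pairs of groups overlapped. Its call in HS+LPS against HS, -0.20 (SE 0.072, adjusted p = 0.0297), was lost without HS replicate 2 or 3 or HS+LPS replicate 1 or 3 (-0.197 to -0.153). The kinase genes Mvk, at 25.7 ± 1.8 in HS+LPS, 28 ± 0.405 in NS+LPS, 27.4 ± 0.86 in HS and 31 ± 2.73 in NS (SD, n = 3 each), and Pmvk, at 38.1 ± 1.59 in HS+LPS, 37.4 ± 1.23 in NS+LPS, 36.5 ± 0.913 in HS and 35.9 ± 2.52 in NS, were called in no comparison.

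Among the regulators, both SREBP genes were lower with LPS in NS medium. Srebf1 had relative signals of 0.552, 0.557 and 0.554 on the HS+LPS arrays, 0.461, 0.498 and 0.542 on the NS+LPS arrays, 0.626, 0.723 and 0.675 on the HS arrays and 0.751, 0.732 and 0.76 on the NS arrays. Both LPS groups lay below both groups without LPS, with NS the highest. It fell by 0.58 with LPS in NS medium (SE 0.065, adjusted p = 1.83e-05) and by 0.28 in HS medium (adjusted p = 0.00275), the second not called with cyclic loess (-0.113, adjusted p = 0.159). The salt differences were 0.15 (95% interval 0.007 to 0.30, adjusted p = 0.0689) with LPS and -0.15 (95% interval -0.29 to -0.006, adjusted p = 0.0967) without. Srebf2 averaged 5.33 ± 0.459 in HS+LPS, 4.27 ± 0.268 in NS+LPS, 5.63 ± 0.362 in HS and 5.05 ± 0.197 in NS (SD, n = 3 each). Srebf2 was higher with salt under LPS, 0.32 (SE 0.075, adjusted p = 0.00471), but not with the mean of its 2 probes (0.187, adjusted p = 0.129). It was lower with LPS in NS medium, -0.25 (SE 0.075, adjusted p = 0.0152), a call lost without NS replicate 3 or NS+LPS replicate 1 (-0.221 to -0.214).

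Scap averaged 17.4 ± 0.886 in HS+LPS, 16.5 ± 1.1 in NS+LPS, 27.4 ± 0.649 in HS and 22.9 ± 0.588 in NS (SD, n = 3 each), higher in HS than NS by 0.26 (SE 0.056, adjusted p = 0.00487) and lower with LPS, at -0.65 in HS and -0.47 in NS medium. Insig1, which holds Scap back and is itself an SREBP target, had relative signals of 1.59, 1.6 and 1.62 on the HS+LPS arrays, 1.9, 1.72 and 1.93 on the NS+LPS arrays, 1.84, 1.63 and 1.51 on the HS arrays and 2.71, 2.13 and 1.83 on the NS arrays. The 3 NS arrays spread from 1.83 to 2.71, and HS overlapped NS at the edge. Insig1 was called in HS against NS alone, -0.41 (SE 0.13, adjusted p = 0.0273), and not when NS replicate 1, NS replicate 2, HS replicate 2 or HS replicate 3 was left out (-0.43 to -0.256).

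Stard4, a carrier that moves cholesterol through the cytosol, had relative signals of 3.17, 3.14 and 2.81 on the HS+LPS arrays, 3.7, 3.61 and 3.72 on the NS+LPS arrays, 6.25, 6.18 and 6.21 on the HS arrays and 6.63, 6.09 and 5.82 on the NS arrays. HS+LPS arrays were the lowest, NS+LPS next, and HS overlapped NS. By this probe Stard4 was 2.05-fold lower in HS+LPS than HS, -1.03 (SE 0.058, adjusted p = 7.68e-08), and 1.68-fold lower in NS+LPS than NS, -0.75 (SE 0.058, adjusted p = 1.05e-06). The salt difference with LPS was -0.28 (SE 0.058, adjusted p = 0.00229). A second probe gave log2 differences of 0.625 and 0.771 for the same LPS comparisons and 0.247 for salt under LPS. With the mean of both probes the LPS difference became -0.205 in HS medium and 0.012 in NS medium, and the salt difference -0.015, so the direction for Stard4 rests on the choice of probe. For 11 members there were several probes above background, and their probes disagreed in sign for 5 of the 11 in HS+LPS against NS+LPS and for 3 in each LPS comparison. In HS against NS they disagreed for 6 of the 11. With probes above background on all 12 arrays alone, 10 members had several, which disagreed for 4 in HS+LPS against NS+LPS, 2 in each LPS comparison and 5 in HS against NS.

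Scaling and probe choice also moved the size of other called differences. In HS+LPS against HS, cyclic loess gave 0.618 for Acat2, -0.123 for Idi1, -0.209 for Cyp51 and -0.162 for Fads2. Quantile normalization gave -0.309 for Fdps and -0.307 for Scd2 there, normexp -0.144 for Srebf1, and the mean of probes 0.243 for Acly. In NS+LPS against NS, cyclic loess gave 0.191 for Tm7sf2 and the mean of probes -0.491 for Fads2. All of these kept their direction and their call. In HS against NS, Sc4mol was 0.066 with cyclic loess and not called (adjusted p = 0.172).

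**Figure D4:**
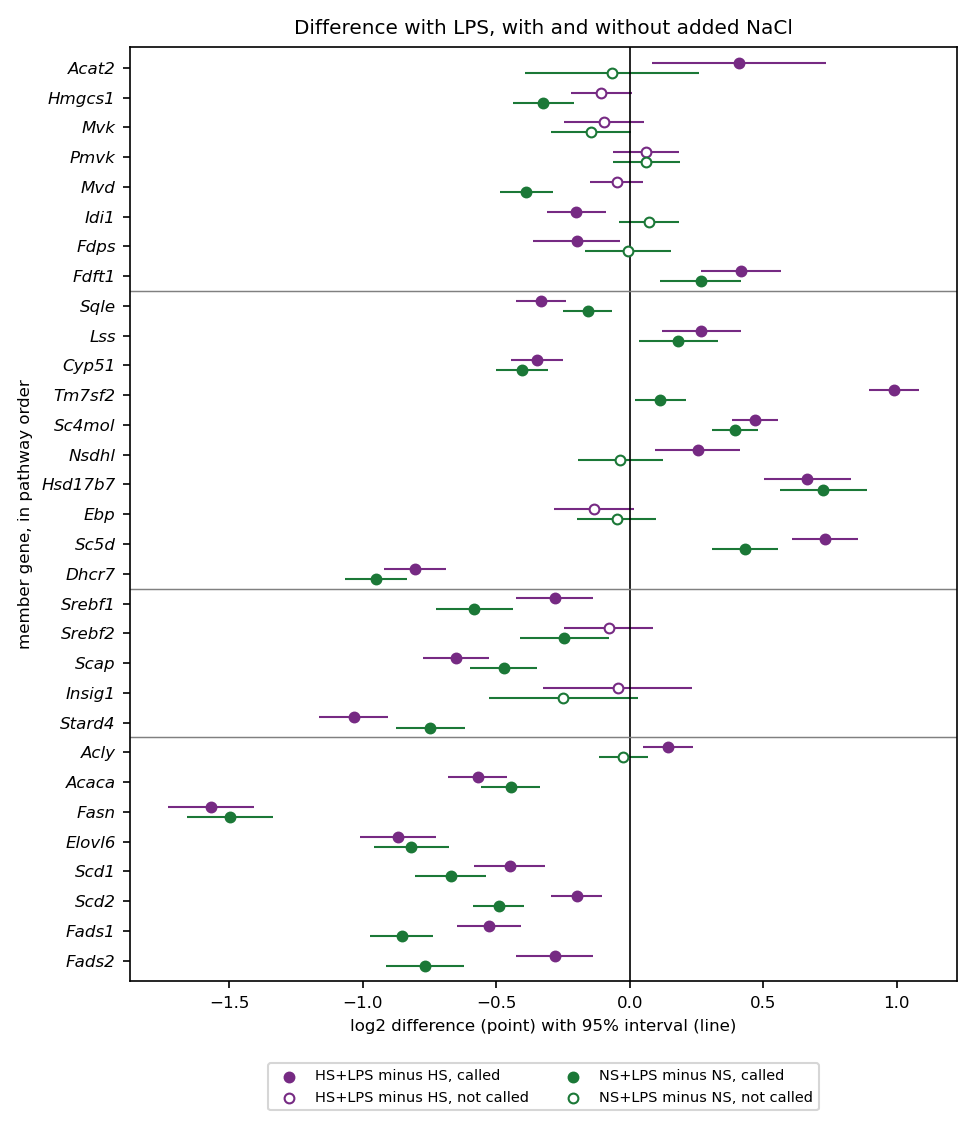
Log2 differences with LPS for the 31 members, in HS medium (purple, HS+LPS minus HS) and NS medium (green, NS+LPS minus NS), with 95% intervals. Filled points were called. Fasn was at -1.57 and -1.50 and Dhcr7 at -0.81 and -0.95, while Hsd17b7 was at 0.67 and 0.72.

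Whether salt differed with LPS by more or less than without it was tested as an interaction, the salt difference in LPS cells minus that in cells without LPS. In total 13 members (41.9%) were called, 10 higher and 3 lower, where 36.2% of all genes were called, 17.4% higher and 18.8% lower. Of 8 fatty acid members, 4 were called higher and none lower. The largest was Tm7sf2 at 0.88 (SE 0.06, adjusted p = 8.81e-06), then Fads2 at 0.49 (SE 0.092, adjusted p = 0.00286). Mvd, Fads1, Sc5d and Scd2 were called at 0.34, 0.33, 0.30 and 0.29, and Idi1 at -0.27 (SE 0.071, adjusted p = 0.0137). These 7 members kept their call under all 22 alternatives run. The other 6 did not: Stard4 (-0.29) was lost when dim probes were not filtered out, and Srebf1 (0.30), Hmgcs1 (0.22), Nsdhl (0.29), Acly (0.17) and Sqle (-0.17) were lost in 7 to 11 single-array omissions. Without one of those arrays the interaction was 0.244 to 0.303 for Srebf1, 0.182 to 0.225 for Hmgcs1, 0.226 to 0.32 for Nsdhl, 0.147 to 0.185 for Acly and -0.19 to -0.147 for Sqle, and the arrays came from all 4 groups. Quantile normalization moved Sqle to -0.105 (adjusted p = 0.153) and Acly to 0.257, and normexp moved Sqle to -0.277. The count higher was 6 without HS replicate 1, NS+LPS replicate 2 or HS+LPS replicate 2.

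For Fasn, Elovl6 and Acaca, called higher with salt in both settings by their brightest probes, the interaction was -0.072 (95% interval -0.30 to 0.16, adjusted p = 0.608), -0.05 (95% interval -0.25 to 0.15, adjusted p = 0.691) and -0.12 (95% interval -0.28 to 0.032, adjusted p = 0.192). The 4 Acaca probes ranged from -0.337 to -0.0731 in the interaction. The salt comparisons with and without LPS share no array. Higher in both were 7 members (70% of the 10 called higher without LPS and 36.8% of the 19 with it): Elovl6, Fasn, Acaca, Acly, Mvd, Nsdhl and Sc4mol. Over all genes the same shares were 57.1% and 39.8%. That is 22.6% of members higher in both, beside 10.4% of all genes. Of the 7, only Mvd, Acly, Fasn and Elovl6 kept both calls under every alternative run. Idi1, Sqle and Scap were called higher only without LPS, and of these Idi1 and Sqle were called in the interaction while Scap was not (-0.18, adjusted p = 0.103).

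**Figure D5:**
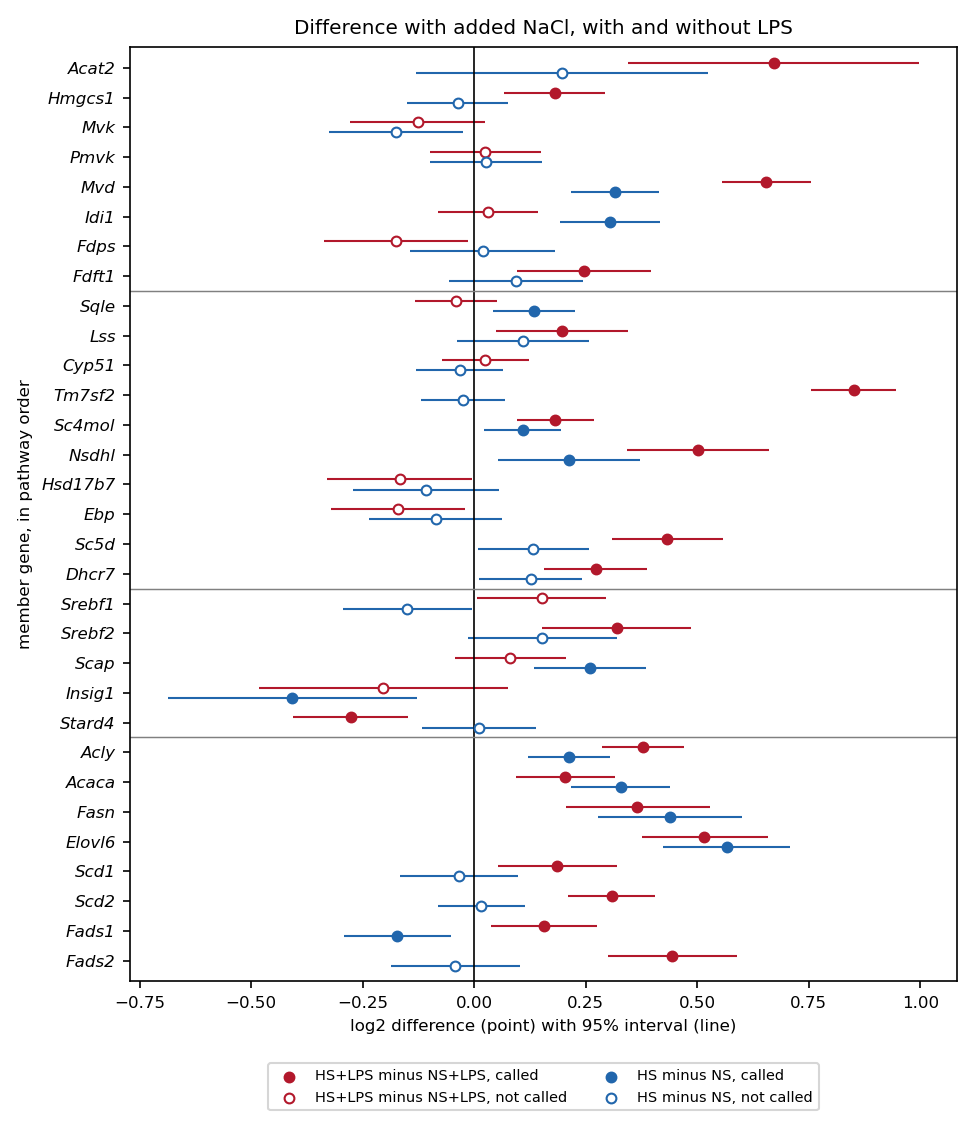
Log2 differences with added NaCl for the 31 members, with LPS (red, HS+LPS minus NS+LPS) and without (blue, HS minus NS), with 95% intervals. Filled points were called. Tm7sf2 was at 0.85 with LPS and -0.025 without, while Elovl6 was at 0.52 and 0.57.

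Genes of the same pathway outside the 31 were read for context. Insig2 was 0.16 with salt under LPS and -0.23 with LPS in NS medium, both called.

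The background for the lists that follow is the share of all genes called in each comparison, given above. In the list of 14 other genes of cholesterol synthesis, uptake and storage, 10 were lower and 1 higher with LPS in NS medium, against 3 higher and 5 lower with salt under LPS and 3 higher and 6 lower with salt alone. Called were 78.6%, 57.1% and 64.3% in that order, beside 63.8%, 57.5% and 37% of all genes. Lipa, the lysosomal lipase that frees cholesterol, differed by -1.20 (SE 0.044, adjusted p = 3.26e-09) with LPS in NS medium and 0.51 (SE 0.044, adjusted p = 7.02e-06) with salt under LPS. Soat1, which esterifies cholesterol, was at -1.06 with LPS in NS medium, and Npc2, a lysosomal sterol carrier, higher by 1.08. Nceh1, which removes the ester, was -1.04 (SE 0.048, adjusted p = 7.88e-07) with salt alone. Of 14 tested genes that process or degrade SREBPs, 5 were higher and 4 lower with salt under LPS (64.3% called, against 57.5% of all genes). The largest there was Lpin1, a phosphatidate phosphatase known to restrain SREBP in mouse, at 1.02 (SE 0.087, adjusted p = 6.87e-06). Its interaction was 0.94 (SE 0.12, adjusted p = 0.000372). Faf2, which helps extract proteins from the endoplasmic reticulum, was higher by 1.12 (SE 0.06, adjusted p = 5.85e-08) with LPS in NS medium.

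In 20 tested genes of other fatty acid synthesis and elongation, 8 were higher and 4 lower with salt under LPS. That is 60% called, near the 57.5% of all genes. Ptplb (current symbol Hacd2), an elongation dehydratase, was 1.52 (SE 0.087, adjusted p = 5.65e-07) with salt under LPS and 0.58 (SE 0.087, adjusted p = 0.000558) without, and Me1, which supplies NADPH, 0.89 (SE 0.071, adjusted p = 4.58e-06) with LPS. In the list of 13 tested fatty acid oxidation genes, 9 were lower and 1 higher with LPS in NS medium (76.9% called, against 63.8% of all genes). Among those lower were Hadh at -1.02 and Cpt1a, which admits fatty acids to mitochondria, at -0.95.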

How the data were processed

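RNA from 12 RAW264.7 samples was read on 1-colour arrays (design 028005, mm9 probe positions). Per the file headers, the deposited scanner files hold intensity, background subtracted by Feature Extraction 10.7.3.1. The deposited value table also holds intensity, already normalized in a way not given in the sources used here, and served as an alternative. Outlier-flag, control and background-flag columns are per the file headers of other kinds than intensity.

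The processed signal was divided by its array's 75th percentile (59305 non-control spots) and put on the log2 scale. After averaging, 55681 probes remained, 10 were dropped, and 0 spots were saturated. A probe was kept if well above background on all 3 arrays of 1 group or more, and the brightest probe stood for a gene. All 12 arrays were fitted with limma 3.58.1 (R 4.3.3, 8 residual degrees of freedom, 2-sided, Benjamini-Hochberg over 13856 genes), with calls at an adjusted p under 0.05. Precision is limited by the number of arrays. The method was tested on simulated data. Figures used matplotlib and Python.

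The members and lists were chosen with earlier results of these data known. All members may be named, and other genes are index genes or the up to 3 largest called per list. Alternatives were normexp (offset 50), quantile, cyclic loess, the deposited table, filters, mean of probes, an intensity trend, only the groups compared, blocks for replicate number and slide, and omission of each array. The fixed slide block was fitted without the HS+LPS arrays. Same-numbered arrays were not treated as pairs, since their deviations correlated at -0.2 to 0.125 (2 of 18 pairs over 0.1). The genes Ubxn4, Prkaa2, Ch25h, Cyp7b1, Elovl7 and Ppargc1a did not pass the filter. Some results are not reported here.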

Additional observations from a re-analysis of the deposited data

Results flagged for a closer look

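For 13 members the salt difference with LPS differed from that without LPS by the test of the interaction itself (limma, n = 3 arrays per group). Higher with LPS were Tm7sf2 at 0.876 (adjusted p = 8.81e-06), Fads2 at 0.486 (0.00286), Mvd at 0.339 (0.00265), Fads1 at 0.328 (0.00778), Srebf1 at 0.301 (0.0276), Sc5d at 0.3 (0.0146), Scd2 at 0.292 (0.00498), Nsdhl at 0.289 (0.048), Hmgcs1 at 0.217 (0.039) and Acly at 0.167 (0.0474). Lower with LPS were Stard4 at -0.287 (0.0203), Idi1 at -0.274 (0.0137) and Sqle at -0.175 (0.0405). The HS+LPS arrays lay on a slide of their own, so slide and this difference cannot be told apart.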

How the results depend on the processing

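Members higher in HS+LPS than NS+LPS numbered 16 to 19 when single arrays were left out, and members lower 1 to 4. The lower count, 1 as reported, was 6 with normexp, 4 with quantile normalization, the deposited table or an intensity trend, 3 with cyclic loess, and 2 with genes above background on all 12 arrays, with only the groups compared or with slide as a random block. Members lower in HS than NS, 2 as reported, numbered 0 with no filter, with only the groups compared and with slide as a fixed block, and 0 to 3 in single omissions. Members called in the interaction, 10 higher and 3 lower as reported, numbered 6 and 1 with no filter, and 6 to 9 were higher in single omissions. The median of members in HS against NS, 0.093, was 0.019 with the mean of a gene's probes. In NS+LPS against NS it ranged from -0.281 to -0.128 in single omissions. With the mean of a gene's probes Fdft1 changed sign to -0.666 in HS+LPS against NS+LPS, -0.164 in NS+LPS against NS and -0.179 in HS+LPS against HS, and Stard4 to 0.012 in NS+LPS against NS. The calls higher made up 83.3% of members called in HS against NS (72.7% with normexp or cyclic loess) and 95% in HS+LPS against NS+LPS (73.9% with normexp, 82.6% with quantile normalization or the deposited table). Member calls kept under every alternative run numbered 7 of 12, 11 of 20, 17 of 22, 19 of 24 and 7 of 13, in the order HS against NS, HS+LPS against NS+LPS, NS+LPS against NS, HS+LPS against HS and the interaction. The alternatives run numbered 24, 23, 24, 23 and 22 in that order. The fixed slide block could not be run for comparisons with HS+LPS, so these ratios are not alike. With a replicate block, 8 members were higher and 2 lower in HS against NS, and 7 higher and 2 lower in the interaction. The numbers do not pair the arrays. The causes of these changes were not tested. Differences involving HS+LPS rest on 1 slide, and all members were well above background.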

Other observations

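Genes that export or sense sterols, outside the 31, were also read. Of 11 tested genes of oxysterol enzymes and LXR targets, 9 were lower and 1 higher in NS+LPS than in NS (90.9% called, against 63.8% of all genes). In HS+LPS against NS+LPS, 2 were higher and 1 lower (27.3% called, against 57.5% of all genes). Abca1, a cholesterol exporter, was called lower with salt alone, -0.94 (SE 0.17, adjusted p = 0.00185), with its probe above background on 2 of 3 HS arrays and 3 of 3 NS arrays. On the LPS arrays it was above background on no HS+LPS array and 1 of 3 NS+LPS arrays, so no difference is given there. The counts above still include Abca1, as lower in NS+LPS against NS and higher in HS+LPS against NS+LPS. Abcg1, a second exporter, was 1.80 (SE 0.1, adjusted p = 5.65e-07) with salt under LPS and -1.54 (SE 0.1, adjusted p = 3.54e-07) with LPS in NS medium. Apoe, an apolipoprotein that macrophages secrete, was 0.56 (SE 0.061, adjusted p = 7.97e-05) with salt alone and -0.28 (SE 0.061, adjusted p = 0.00332) with salt under LPS. Mylip, an LXR target and ubiquitin ligase gene, fell by 1.32 with LPS in NS medium.

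Genes that make or package glycerolipids were read as well. Of 15 such genes, 8 were higher and 6 lower in HS+LPS than HS (93.3% called, against 72.3% of all genes). Plin2, the coat protein of lipid droplets, was higher with LPS by 1.84 (SE 0.052, adjusted p = 4.85e-10) in HS medium and 1.28 (SE 0.052, adjusted p = 7.05e-09) in NS medium, and -0.65 (SE 0.052, adjusted p = 1.19e-05) with salt alone. Dgat2, which makes triglyceride, was -1.10 (SE 0.057, adjusted p = 4.8e-08) with LPS in NS medium. Of 14 genes of isoprenoid branches, 5 were higher and 3 lower with salt under LPS, 57.1% called, near the 57.5% of all genes. Ggps1, which makes geranylgeranyl pyrophosphate, was at 0.52 there (SE 0.05, adjusted p = 1.53e-05). Nus1, of dolichol synthesis, was 1.59 (SE 0.052, adjusted p = 1.5e-09) with LPS in NS medium.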
